A study of Rattus norvegicus with 6 samples.

Results

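A set of 10 genes that mark the blood vessel lining of the kidney was followed through an experiment on rat renal cortex: Kdr, Flt1, Plvap, Pecam1, Cdh5, Tek, Tie1, Emcn, Ehd3 and Eng. They were taken by name, and array probes were assigned to them through the RefSeq accession that each probe carries. All 10 genes were found, with 17 of the 61537 probes that were not controls, among 15645 genes that could be named. The samples came from 6 male Sprague-Dawley (Crl:CD(SD)) rats, 5 weeks old when bought, each measured on its own 1-colour Agilent array. In the DNPT group, 3 rats were given 200 mg/kg/day of N,N'-dinitrosopentamethylenetetramine, which carries nitroso groups on nitrogen, and dosing went on for 4 weeks. The vehicle group of 3 rats received corn oil over the same 4 weeks, and strain, sex, diet and tissue were common to both groups. The comparison asks which transcripts of the cortex differ after dosing with the compound.

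Endothelial cells line every vessel of the kidney, and their form changes along the circulation. Glomerular capillaries are fenestrated without diaphragms, peritubular capillaries carry diaphragms across their fenestrae, and arteries are continuous. VEGF-A made by podocytes and tubules acts on the receptors KDR and FLT1 to keep these capillaries alive and fenestrated. Angiopoietins acting on TEK, with TIE1 as its partner, keep vessels quiescent, and cadherin and PECAM1 at cell borders hold the lining together.

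Signals are given on the log2 scale relative to the 75th percentile of each array, which is set to 0. A change is the DNPT mean minus the vehicle mean on this log2 scale, with its standard error (SE) from limma. Adjusted p-values are Benjamini-Hochberg values from limma over all 34915 features tested. A probe's level depends on its own binding strength, so a difference in level between genes was not read as a difference in RNA. The brightest probes weigh most in the summed levels of marker lists and in the choice of genes named. All 17 member probes were well above background on all 6 arrays, and 0 of their values were saturated. The 3 vehicle arrays and DNPT replicate 1 lay on slide 1 and were scanned on day 1, while DNPT replicates 2 and 3 lay on slide 2 and were scanned on day 2. Values within slide 1 therefore set 1 DNPT rat against the 3 vehicle rats. Between 42116 and 45167 probes per array were well above background. Precision is limited by having 6 arrays. Markers were used to check the labelled tissue. All 7 proximal tubule genes tested were well above background on every array, and the adrenal genes Cyp11b1, Cyp11b2 and Mc2r were not well above background on any array. Cyp21a1, also of the adrenal list, was well above background on all 6 arrays, as were all 4 inner medulla genes tested (Slc14a2, Aqp3, Akr1b1 and Upk1b) and the fat genes Adipoq, Cidec and Cfd.

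Promoter windows of 250 bases before the start of transcription were held by the RefSeq table (assembly GRCr8) for 7 of the 10 genes. ETS factors such as ERG and FLI1 drive much of the endothelial programme, and their sites share the core GGAA. The search used the longer GGAAG, which reads CTTCC on the opposite strand. Copies of GGAA without the G after it were not counted or marked. The motif was chosen after the sequences had been seen. On both strands, 6 of the 7 windows held GGAAG, which occurs in 63.3% of all 27457 windows of this length. The longer AGGAAG, which contains GGAAG, was in 5 of 7 windows and in 29.4% of all. Ehd3 had no GGAAG in its window. TATAAA, the TATA box, was in 2 of the 7 windows, Flt1 and Plvap, against 13.1% of all. The windows of Flt1 and Emcn, the only members whose groups did not overlap, and of Kdr, the member with the largest change, are shown. They run 5′ to 3′ on the strand of the gene, with GGAAG or CTTCC in capitals. The Flt1 window is chr12:12333180-12333429 (+), that of Emcn is chr2:228564289-228564538 (+) and that of Kdr is chr14:32571813-32572062 (+).
Flt1: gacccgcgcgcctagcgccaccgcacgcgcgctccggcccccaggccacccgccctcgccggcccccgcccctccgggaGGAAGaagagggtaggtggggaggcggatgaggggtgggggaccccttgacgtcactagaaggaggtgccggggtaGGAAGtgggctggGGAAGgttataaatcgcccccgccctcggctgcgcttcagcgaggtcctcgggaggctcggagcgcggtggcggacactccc
Emcn: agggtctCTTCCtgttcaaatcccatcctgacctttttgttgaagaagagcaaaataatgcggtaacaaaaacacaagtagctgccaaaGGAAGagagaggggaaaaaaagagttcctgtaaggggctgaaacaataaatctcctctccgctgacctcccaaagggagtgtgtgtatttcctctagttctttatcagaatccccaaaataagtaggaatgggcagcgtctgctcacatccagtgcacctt
Kdr: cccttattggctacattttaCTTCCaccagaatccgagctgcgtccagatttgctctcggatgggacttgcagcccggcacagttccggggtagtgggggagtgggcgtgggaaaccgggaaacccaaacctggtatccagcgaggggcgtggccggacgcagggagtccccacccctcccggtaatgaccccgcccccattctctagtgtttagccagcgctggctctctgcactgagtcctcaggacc
Flt1 held GGAAG 3 times, with the nearest copy beginning 82 bases before the start, next to the TATAAA at 75 bases. Emcn held it 2 times and Kdr 1 time, 230 bases before the start. A match describes letters and is not evidence of binding.

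None of the 10 endothelial genes changed by the test, and their changes were small. The changes ran from -0.18 (Cdh5) to 0.25 (Kdr), 7 positive and 3 negative, with a median of 0.07. Over all features the median change was 0.01, and 52.3% of changes were positive. Adjusted p-values of the members ran from 0.449 to 0.956. limma passed 0 members and 0 of 34915 features (0%) at an adjusted p under 0.05. At an unadjusted p under 0.05 it passed 0 members and 12.1% of all features, 6.02% higher and 6.07% lower in DNPT rats. The groups did not overlap in 2 members, both with DNPT above, and in 20.2% of all features. The 95% intervals of all 10 changes included 0. Their outer limits were a 0.686-fold level for Cdh5 and a 1.46-fold level for Kdr. These limits take no account of the slide, and they do not show that any change was 0. With slide as a fixed block the changes ran from -0.07 for Cdh5 to 0.31 for Tie1. The median absolute change was 0.10 in the members and 0.16 over all features. The median SD within groups was 0.14 in the members and 0.18 over all features. The count over all features depended on the rat left out, since 615 features passed without DNPT replicate 1 and 3 without vehicle replicate 2. Without DNPT replicate 1, all DNPT arrays lay on slide 2 and all vehicle arrays on slide 1. Treatment and slide cannot be told apart in that fit. No member passed in any fit with a rat left out.

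**Figure D1:**
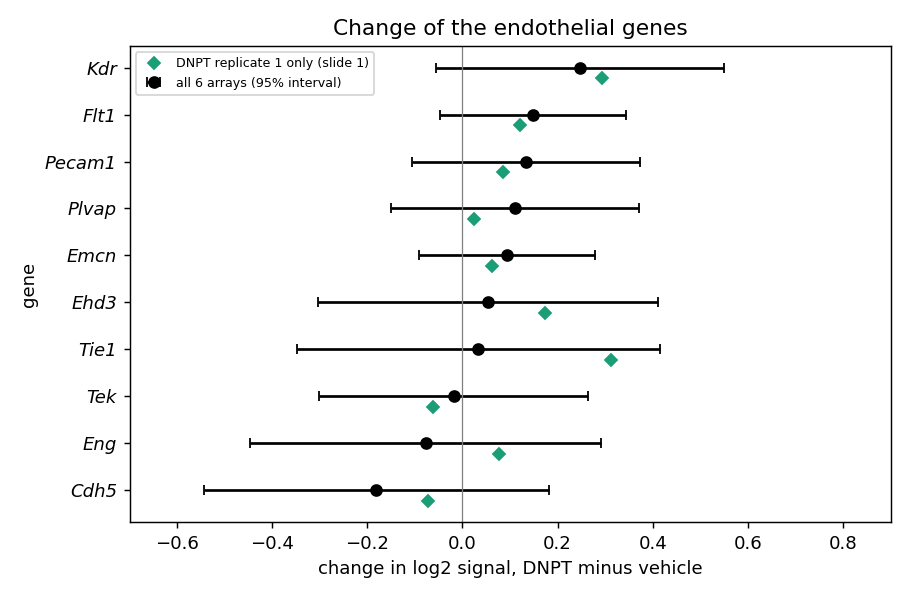
Change in log2 signal (DNPT minus vehicle, x axis) for each endothelial gene (y axis), as black points with 95% intervals from limma over all 6 arrays; green diamonds show DNPT replicate 1 minus the vehicle mean, the comparison within slide 1. All 10 intervals include 0, and Kdr has the largest change at 0.25.

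KDR (VEGFR2) is the main signalling receptor for VEGF-A on endothelium. Kdr signals were 4.46, 4.51 and 4.42 in vehicle replicates 1, 2 and 3 and 4.76, 4.89 and 4.49 in the DNPT replicates. DNPT replicates 1 and 2 lay above all vehicle rats, while DNPT replicate 3 lay within the vehicle range, between vehicle replicates 1 and 2. The group means were 4.71 ± 0.20 (SD, n = 3) for DNPT and 4.47 ± 0.05 for vehicle. The Kdr change was 0.25 (SE 0.12, 95% interval -0.06 to 0.55, adjusted p = 0.449), or 1.19-fold, and it was 0.29 within slide 1. It ran from 0.16 without DNPT replicate 2 to 0.36 without DNPT replicate 3. FLT1 (VEGFR1) binds VEGF-A more tightly, signals weakly and also exists as a soluble decoy form. Flt1 signals were -2.20, -2.26 and -2.15 in vehicle rats and -2.08, -1.997 and -2.09 in DNPT rats. Each DNPT rat lay above each vehicle rat, as in 12.1% of all features. The Flt1 change was 0.15 (SE 0.08, 95% interval -0.05 to 0.34, adjusted p = 0.468), and 0.12 within slide 1. The other Flt1 probes had changes of 0.15 and 0.02, so the separation of groups was seen with 1 of the 3 probes. The transcript form that each Flt1 probe binds is not given here.

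The receptors were also compared within each array, although an exact test of 3 against 3 values cannot go below p = 0.1. The log2 difference Kdr minus Flt1 within each array was 6.67 ± 0.10 in vehicle and 6.77 ± 0.17 in DNPT rats, a change of 0.10 (exact two-sided permutation test, p = 0.4, adjusted p = 0.8 over 3 pairs). Of the other genes of the VEGF system, 7 of 8 were tested, 3 with positive and 4 with negative changes (median -0.05), and 0 passed. Vegfa, the main ligand, had signals of 4.39, 4.41 and 3.92 in vehicle and 4.21, 4.63 and 4.52 in DNPT rats. The low value was vehicle replicate 3, the groups overlapped, and the change was 0.22 (SE 0.18, adjusted p = 0.616), but -0.02 within slide 1. As the mean of its probes the Vegfa change was 0.006. Vegfb, a ligand of FLT1, had a change of -0.09 (SE 0.10). Pgf, placental growth factor and a second ligand of FLT1, had the largest change of this group at 0.58 (SE 0.25, adjusted p = 0.424). The Pgf change was 0.30 as the mean of its probes and 0.24 within slide 1. Its vehicle signals were -1.10, -1.81 and -1.74 and its DNPT signals -1.31, -0.93 and -0.67, so that vehicle replicate 1 lay above DNPT replicate 1.

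TEK (TIE2), the angiopoietin receptor, had the change closest to 0 of the 10 members. Tek signals were -2.71, -2.69 and -2.46 in vehicle rats and -2.68, -2.74 and -2.49 in DNPT rats. The ranges of both groups nearly coincided, with the third replicate highest in each. The change was -0.02 (SE 0.11, 95% interval -0.30 to 0.27, adjusted p = 0.956), and it was -0.06 within slide 1. Its other probe gave -0.21 (SE 0.25). TIE1, an orphan partner of TEK, varied more between DNPT rats. Tie1 signals were -1.04, -0.79 and -0.79 in vehicle and -0.56, -1.04 and -0.93 in DNPT rats. DNPT replicate 1 lay above all other rats, and DNPT replicates 2 and 3 lay within the vehicle range. The Tie1 change was 0.03 (SE 0.15, 95% interval -0.35 to 0.41, adjusted p = 0.938), against 0.31 within slide 1 and -0.11 without DNPT replicate 1. Its other probe, with a change of 0.10, was also highest in DNPT replicate 1.

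Tek minus Tie1 was -1.74 ± 0.13 in vehicle and -1.79 ± 0.29 in DNPT rats, a change of -0.05 (exact permutation test, p = 0.8, adjusted p = 0.8). The other genes of the angiopoietin system had 2 positive and 2 negative changes among 4 tested of 5, and 0 passed. With slide as a fixed block 0 of the 4 were positive. Angpt2, the ligand that destabilises vessels, had a change of -0.14 (SE 0.11), and Angpt4, another ligand, 0.28 (SE 0.31). Foxo1, a transcription factor that TEK signalling restrains, had signals of 0.42, 0.50 and 0.31 in vehicle and 0.26, 0.14 and 0.01 in DNPT rats. All DNPT values of Foxo1 were below all vehicle values, as in 8.18% of all features, with a change of -0.27 (SE 0.10, adjusted p = 0.404).

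**Figure D2:**
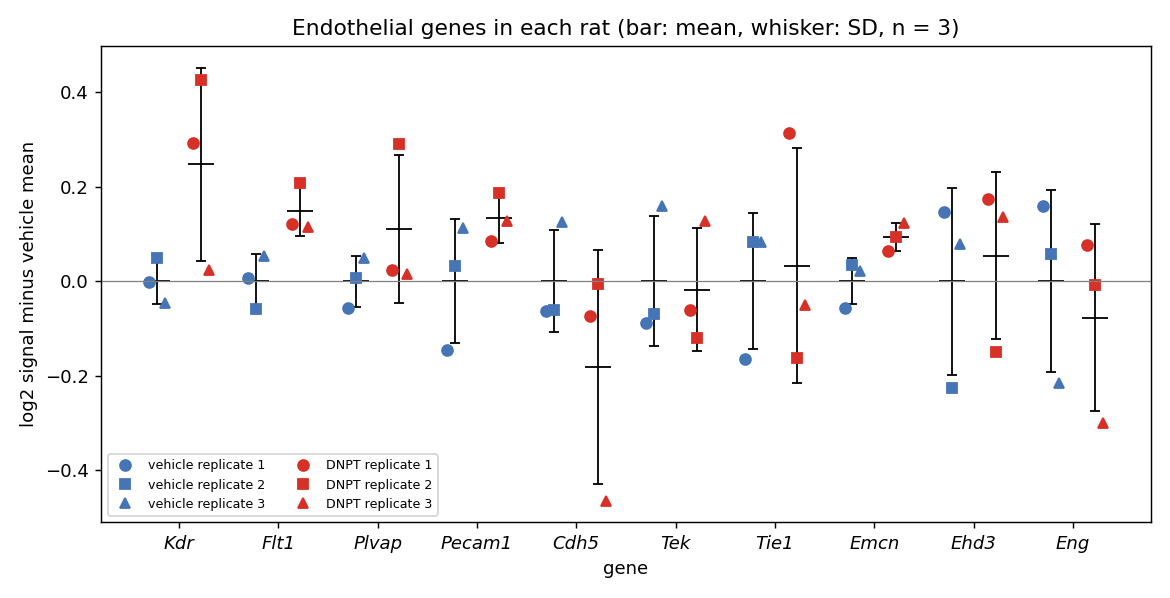
Log2 signal minus the vehicle mean (y axis) of the 10 endothelial genes (x axis) in each rat, vehicle in blue and DNPT in red, with the mean as a bar and the SD as a whisker (n = 3). The groups separate in Flt1 and Emcn and overlap in the other 8 genes, and the Cdh5 value of DNPT replicate 3 is the lowest point at -0.46.

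VE-cadherin, encoded by Cdh5, is the adhesion molecule of endothelial junctions. Cdh5 signals were -1.48, -1.48 and -1.29 in vehicle and -1.49, -1.43 and -1.88 in DNPT rats. DNPT replicate 3 lay below the other 5 rats, while DNPT replicates 1 and 2 were close to the vehicle values. The Cdh5 change was -0.18 (SE 0.15, 95% interval -0.54 to 0.18, adjusted p = 0.605), -0.04 without DNPT replicate 3 and -0.07 within slide 1. The probes of Cdh5 disagreed in sign, since the second probe had a change of 0.21 (SE 0.17). On that probe the vehicle signals were -3.59, -3.38 and -3.17 and the DNPT signals -2.97, -3.13 and -3.41.

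PECAM1 (CD31) joins endothelial cells at their borders and is also present on leukocytes and platelets. Pecam1 signals were 2.08, 2.26 and 2.34 in vehicle and 2.31, 2.41 and 2.35 in DNPT rats. The groups overlapped because vehicle replicate 3 lay above DNPT replicate 1, and vehicle replicate 1 was the lowest. The change was 0.13 (SE 0.10, 95% interval -0.11 to 0.37, adjusted p = 0.569), 0.06 without vehicle replicate 1 and 0.08 within slide 1. The second Pecam1 probe varied widely, from -4.36 in vehicle replicate 3 to -2.88 in vehicle replicate 2 (change 0.03, SE 0.48). Of 10 leukocyte genes, 7 had negative changes (median -0.28) and 0 passed. An unadjusted limma p under 0.05 was reached by 5 lower and 1 higher gene, against 6.07% and 6.02% of all features. All DNPT values were below all vehicle values in 4 genes and above in 1, against 8.18% and 12.1% of all features. The summed level of the 10 genes is in multiples of the array's 75th percentile. It was 4.98 to 5.33 in vehicle rats and 4.01 to 4.16 in DNPT replicates 1 and 3. DNPT replicate 2 had no sum, because its Cd79b spot was left out. In that rat Cd68, the brightest of these genes, was at 0.89, within the vehicle range of 0.70 to 1.02. The median of the genes with a value, each relative to its vehicle mean, was -0.333, -0.215 and -0.349 in the DNPT replicates. Ccr7 had the lowest adjusted p of the list, 0.26 (change -0.47, SE 0.07). Cd3e, a T cell gene, had the largest change, -1.75 (SE 0.65), and was well above background on 1 DNPT array. No DNPT array had Cd2, another T cell gene, well above background. Cd79b, a B cell gene, lay the other way, with a change of 1.14 (SE 0.20, adjusted p = 0.295) over 3 vehicle and 2 DNPT values, since the DNPT replicate 2 spot was left out as an outlier. Ccr7, Cd3e, Cd2 and Cd79b were named after their values were seen. For 5 of 7 platelet genes tested the summed level was 1.32 to 1.74 in vehicle and 1.46 to 2.34 in DNPT rats. The part of these cells in the Pecam1 signal was not tested. In tissue RNA, fewer cells of a type and less RNA per cell cannot be told apart.

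Junction partners of these proteins had 8 positive changes among 9 tested, with a median of 0.03, and 0 passed. This direction depended on the processing, since 5 of the 9 were positive with quantile normalization, 1 of 9 with normexp (median -0.05) and 3 of 9 with slide as a fixed block (median -0.03). The brightest, F11r (a tight junction adhesion molecule) and Jup (plakoglobin, which binds VE-cadherin), had changes of 0.04 and 0.03 (SE 0.09 each). Esam, an adhesion molecule of endothelial tight junctions, had signals of 0.38, 0.30 and 0.46 in vehicle and 0.80, 0.69 and 0.59 in DNPT rats. Jam2, a related molecule of vascular junctions named here after its values were seen, lay the other way, at 0.36, 0.50 and 0.53 in vehicle and 0.27, 0.11 and 0.14 in DNPT rats. The groups overlapped in neither gene. The Esam change was 0.31 (SE 0.10, adjusted p = 0.382) and that of Jam2 -0.29 (SE 0.09, adjusted p = 0.389).

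PLVAP forms the diaphragms of fenestrae and marks peritubular capillaries. Plvap signals were 5.40, 5.46 and 5.51 in vehicle and 5.48, 5.75 and 5.47 in DNPT rats. DNPT replicate 2 stood above the other 5 rats, which lay close together. The Plvap change was 0.11 (SE 0.11, 95% interval -0.15 to 0.37, adjusted p = 0.661), 0.02 within slide 1 and 0.02 without DNPT replicate 2. Its other probe had a change of -0.01 (SE 0.13) and was also highest in DNPT replicate 2. Endomucin, encoded by Emcn, is a sialomucin of the capillary and venous surface. Emcn signals were 1.51, 1.60 and 1.58 in vehicle and 1.63, 1.66 and 1.69 in DNPT rats. The lowest DNPT value was above the highest vehicle value. The Emcn change was 0.09 (SE 0.08, 95% interval -0.09 to 0.28, adjusted p = 0.603), or 1.07-fold, and 0.06 within slide 1.

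EHD3 is an endocytic recycling protein that is concentrated in glomerular endothelium within the kidney. Ehd3 signals were -3.04, -3.41 and -3.10 in vehicle and -3.01, -3.33 and -3.05 in DNPT rats. In each group the second replicate was the lowest, and the ranges overlapped. The Ehd3 change was 0.05 (SE 0.15, 95% interval -0.30 to 0.41, adjusted p = 0.889), 0.17 within slide 1 and -0.06 without vehicle replicate 2. The peritubular against the glomerular marker, Plvap minus Ehd3, was 8.64 ± 0.22 in vehicle and 8.69 ± 0.33 in DNPT rats, a change of 0.06 (exact permutation test, p = 0.8, adjusted p = 0.8). The EHD relatives Ehd1 and Ehd4 had changes of 0.08 (SE 0.13) and -0.14 (SE 0.12), and 0 of the 3 relatives tested passed. Further genes of glomerular and arterial endothelium had 4 positive and 5 negative changes, and genes of peritubular and venous endothelium 2 and 2, with none passing. In the glomerular and arterial list Plat (tissue plasminogen activator) had a change of 0.18 (SE 0.09), but 0.05 as the mean of its probes. Fbln5 (an elastic fibre protein) had a change of -0.04 (SE 0.24) and Tbx3 (a transcription factor) -0.64 (SE 0.37). Tbx3 was at -0.71, -1.55 and -2.20 in DNPT rats and between -1.01 and -0.67 in vehicle rats, so DNPT replicate 1 was within the vehicle range. The Tbx3 change was -1.03 without DNPT replicate 1, -0.28 without DNPT replicate 3, -0.19 as the mean of its probes and 0.13 within slide 1. In the peritubular and venous list Igfbp3 (a binding protein of insulin-like growth factors) had a change of 0.39 (SE 0.28) and the venous regulator Nr2f2 0.02 (SE 0.11). The Igfbp3 change was 0.10 without vehicle replicate 3 and 0.59 without vehicle replicate 1. With slide as a fixed block all 4 genes of that list had positive changes.

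Endoglin, encoded by Eng, is a co-receptor that passes BMP9 and TGF-beta signals to the receptor ALK1. Eng signals were 0.81, 0.71 and 0.44 in vehicle and 0.73, 0.65 and 0.35 in DNPT rats. The groups overlapped, and the third replicate was lowest in each. The Eng change was -0.08 (SE 0.15, 95% interval -0.45 to 0.29, adjusted p = 0.840), against 0.08 within slide 1. The rest of the endoglin and ALK1 list had 9 positive and 4 negative changes among 13 tested of 15 (median 0.10), and 0 passed, while Bmp10 and Smad9 were not well above background on any array. Id3, a target of this pathway, had signals of 2.82, 2.45 and 2.81 in vehicle and 3.07, 3.22 and 2.97 in DNPT rats. The Id3 change was 0.39 (SE 0.14, adjusted p = 0.395), but -0.01 when its probes were averaged. Smad7, an inhibitor of the pathway, had a change of 0.34 (SE 0.17). Smad1, a signal transducer, and Tgfb1, a ligand, named after their values were seen, had changes of -0.28 (SE 0.09, adjusted p = 0.381) and -0.31 (SE 0.11, adjusted p = 0.396), each with all DNPT values below all vehicle values.

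No rat was high or low in all 10 genes. Relative to the vehicle mean of each gene, the median over the members was -0.06, 0.02 and 0.07 in vehicle replicates 1, 2 and 3 and 0.08, 0.04 and 0.07 in the DNPT replicates. The DNPT medians thus lay beside those of vehicle replicates 2 and 3. DNPT replicate 2 had the highest value of Kdr, Flt1, Plvap and Pecam1, and the lowest of Tek. DNPT replicate 1 was highest in Tie1 and Ehd3, and DNPT replicate 3 was lowest in Cdh5 and Eng. Vehicle replicate 1 was lowest in 4 genes, Plvap, Pecam1, Tie1 and Emcn.

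**Figure D3:**
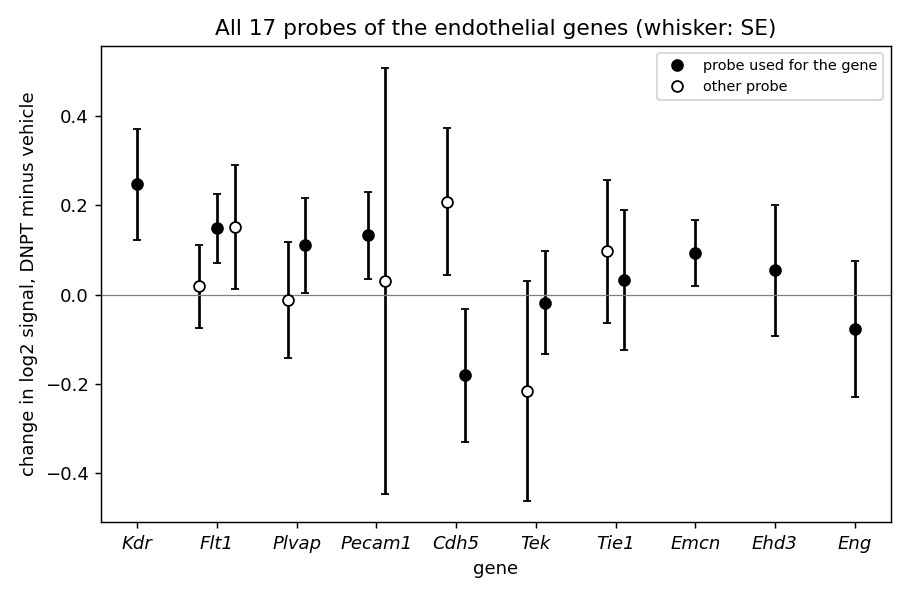
Change in log2 signal (DNPT minus vehicle, y axis) of all 17 probes by gene (x axis), with the SE as a whisker; filled points are the probes used for the genes and open points the others. Of the 17 changes 12 are positive and 5 negative, and the probes of Cdh5 and of Plvap lie on both sides of 0.

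Across all probes of the members, 12 changes were positive and 5 negative, and 0 reached an unadjusted limma p under 0.05. Only the Emcn probe and 1 Flt1 probe had all DNPT values above all vehicle values, and no probe had them all below. Emcn, Kdr, Ehd3 and Eng had 1 probe each by RefSeq accession, so no second probe was compared for them. Further probes of the members were not looked for among the 33331 probes that were not named.

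Beyond the members, 81 of 92 listed genes of endothelial signalling, junctions, transcription and vessel type were tested, and 0 passed. Their median change was 0.05, with 49 positive (60.5%, against 52.3% of all features) and 32 negative changes. Over the 19 alternatives of the closing section this median ran from 0.008 to 0.126. The lowest came with probe means, where 43 changes were positive. An unadjusted p under 0.05 was reached by 11 of the 81 (13.6%), against 12.1% of all features. The 6 on the higher side were Id3, Esam, Sox7, Sox18, Gata2 and Nos3, and the 5 on the lower side were Foxo1, Tgfb1, Smad1, Jam2 and Klf2. The DNPT group lay wholly above the vehicle group in 8 of the 81 and wholly below it in 5, that is in shares under the 12.1% and 8.18% of all features.

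Nos3 and Klf2 carry the response of endothelium to blood flow and were named after their values were seen. Nos3, the endothelial nitric oxide synthase, had signals of -1.63, -1.46 and -1.49 in vehicle and -1.05, -1.22 and -1.21 in DNPT rats. The groups did not overlap, and the change was 0.37 (SE 0.09, adjusted p = 0.355), or 1.29-fold. Klf2, a flow-induced transcription factor that activates Nos3, lay the other way, at -0.88, -0.75 and -1.05 in vehicle and -1.24, -1.47 and -1.63 in DNPT rats. Its groups did not overlap either, and its change was -0.55 (SE 0.14, adjusted p = 0.353), or 0.682-fold. Within slide 1 the change was -0.35 for Klf2 and 0.48 for Nos3. Neither gene passed over all features.

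Among the endothelial transcription factors, 6 had positive and 6 negative changes. Sox7 and Sox18, related factors that specify vessels, had changes of 0.56 (SE 0.21, adjusted p = 0.404) and 0.52 (SE 0.19, adjusted p = 0.399). Sox7 groups did not overlap, whereas vehicle replicate 3 of Sox18 (0.61) lay above DNPT replicate 1 (0.57). Gata2, a regulator of endothelial and blood cells, had a change of 0.40 (SE 0.14, adjusted p = 0.399). The ETS factors Ets2 and Erg had changes of 0.22 (SE 0.16) and 0.07 (SE 0.20). Notch and ephrin genes had 4 positive and 4 negative changes. Notch1 was at 0.21 (SE 0.14), but at 0.002 as the mean of its probes. Its ligand Jag1 was at -0.10 (SE 0.15) and its target Hey1 at -0.32 (SE 0.26). With slide as a fixed block, which sets DNPT replicate 1 against the vehicle rats, all 8 changes of this list were positive (median 0.13). Of 18 other endothelial genes listed, 12 were tested. No probe was assigned to Vwf, Robo4, Egfl7, Mmrn2 and Ecscr, and Selp was not well above background on any array. Among the 12 tested, 9 had positive changes (median 0.08). The caveolar protein Cav1 was at 0.06 (SE 0.21) and the thrombin receptor Thbd at -0.01 (SE 0.17). Sele, the selectin of activated endothelium, was well above background in 1 vehicle and 2 DNPT rats, and its change of 0.96 had an SE of 1.29.

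**Figure D4:**
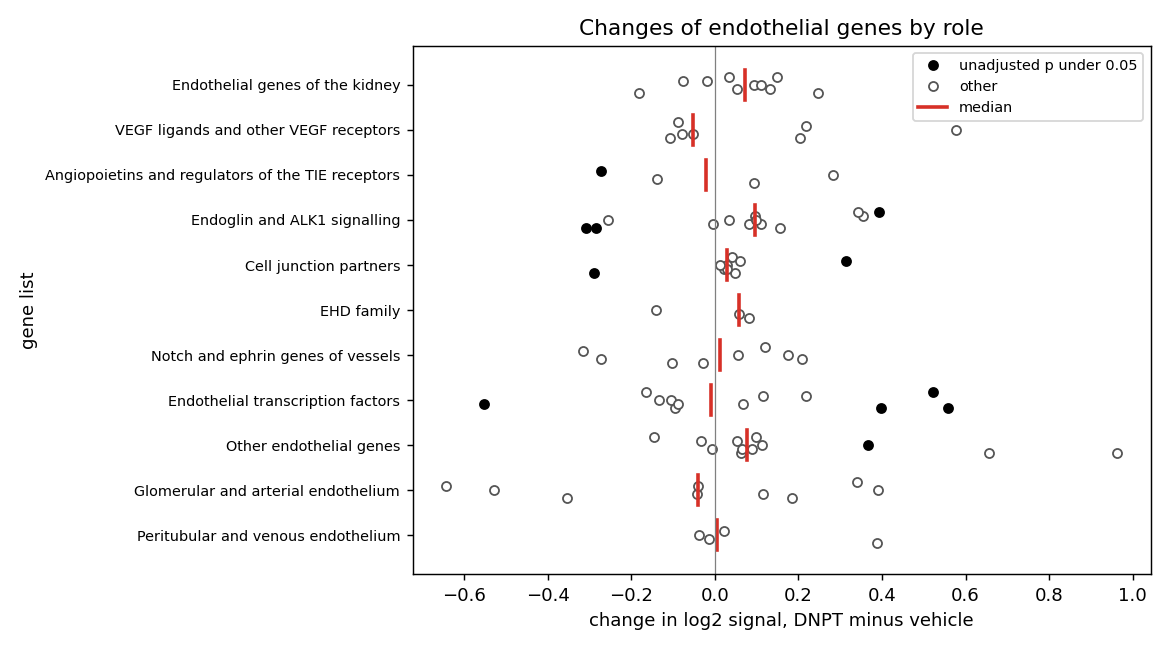
Change in log2 signal (DNPT minus vehicle, x axis) of each tested gene by list (y axis), with a red bar for the median; filled points have an unadjusted p under 0.05. All 10 members are open points, the 11 filled points lie on both sides of 0, and no gene passed after adjustment.

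Markers of neighbouring cells differed between groups in part. Summed levels, in multiples of the 75th percentile, were 1530 to 1700.0 in vehicle and 1720 to 2000.0 in DNPT rats for 7 proximal tubule genes. All 7 of their changes were positive (median 0.15), but 4 of 7 were with quantile normalization (median 0.05) and 4 of 7 with normexp (median 0.01). For 6 red blood cell genes, whose 6 changes were positive under these scalings too, they were 544 to 670.0 in vehicle and 704 to 788 in DNPT rats. They overlapped for 7 podocyte genes (45.8 to 52.4 and 47.6 to 56.1), for 9 mural and mesangial genes (26.1 to 37.1 and 21.8 to 35.8) and for 5 lymphatic genes (5.16 to 7.55 and 6.85 to 8.43). None of these genes passed, and the part of these cells in the endothelial signals was not tested. Prox1, the factor that defines lymphatic endothelium, was not well above background on any array.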

How the data were processed

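Renal cortex RNA of 6 rats was measured on 1-colour arrays. The scans were read with Agilent Feature Extraction 10.7, as the submitters' processing notes state. Each spot's intensity in the deposited files is linear and, per the file headers, background-corrected. The deposited value table holds linear ratios, which matched processed signal over 1 constant per array within 0.5%, with column medians of 0.112 to 0.116.

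Control spots and 113 flagged outlier values were left out, while saturated ones stayed in. The log2 processed signal, less the 75th percentile of its array, was tested with limma 3.58.1 in R 4.3.3 (two-sided, no covariates) where a probe was well above background on at least 3 arrays with 2 values per group. Each gene took its brightest tested probe. Of the probes, 28206 were named through a RefSeq table of assembly GRCr8 and 33331 were not. Single values within arrays were compared by exact permutation tests. The fit was tested on simulated data.

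Members and lists were chosen with earlier results of these data known. Named genes were all members, the 2 brightest and the most changed gene of each pathway list, and others said to be named after their values were seen. The rule also covers the marker lists, but these are given as counts and sums, and their genes are mostly not named. The labels describe 3 animals per group. Normexp used the median spot signal. Alternatives are listed in the closing section.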

Additional observations from a re-analysis of the deposited data

How the results depend on the processing

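The counts and the changes of genes were recomputed under 19 alternatives (18 for Sele, and 11 for the differences within pairs of genes, which were not run with other filters, probe means, trend, weights or blocks): quantile normalization, normexp with an offset of 50, array medians, the deposited value table, stricter and no filters on dim probes, probe means, an intensity trend, array weights, slide as a fixed or random block, slide 1 alone, the replicate number as a block and each rat left out. Those for the pathway genes were added after seeing the data. In all 19, 0 members and 0 pathway genes passed. The members' median change ran from 0.05 to 0.10, with 6 to 8 positive. Of the members, Kdr, Flt1, Plvap, Pecam1 and Emcn kept a positive change in all 19, and the smallest was 0.01 for Plvap. Not all 19 could turn a sign. For Kdr, the filters, the intensity trend, the replicate block and probe means left the main change of 0.247 unaltered. The deposited value table, the same signal over a constant, gave 0.245. Slide as a fixed block and slide 1 alone are the same comparison and both gave 0.293. The number of features that passed was 5 with normexp, 1 with slide as a fixed block and 0 to 615 with a rat left out. An unadjusted p under 0.05 was reached by 8756 without a filter, 2389 with slide as a fixed block, 2709 on slide 1 alone and 2541 to 7301 with a rat left out. The 615 and the 7301 came without DNPT replicate 1, where treatment and slide cannot be told apart. With the replicate block 0 features passed and 3090 reached an unadjusted p under 0.05. Same-numbered rats did not deviate together (r of deviations -0.18, -0.06 and -0.18). The highest r was 0.33, for vehicle replicate 3 with DNPT replicate 1. The check gave no sign of pairing by number, but deviations from means of 3 rats cannot exclude a pairing.

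Some changes turned sign, and not only those close to 0: Tbx3 (-0.64), Id3 (0.39), Hey1 (-0.32), Angpt4 (0.28), Vegfa (0.22) and Sele (0.96) did so under a setting given here. The cause was not tested. Quantile normalization gave -0.008 for F11r, -0.014 for Jup, -0.023 for Nr2f2 and -0.061 for Plvap minus Ehd3. Normexp gave -0.059 for F11r, -0.155 for Jup, -0.117 for Nr2f2, -0.022 for Kdr minus Flt1 and -0.001 for Plvap minus Ehd3. Array medians gave 0.005 for Tek and 0.017 for Thbd, and probe means 0.014 for Cdh5, -0.014 for Id3 and -0.083 for Cav1. Array weights gave -0.033 for Tie1 and 0.011 for Thbd, and slide as a random block -0.012 for Cav1 and 0.027 for Thbd. With slide as a fixed block or slide 1 alone, values were 0.076 for Eng, -0.024 for Vegfa, 0.026 for Vegfb, -0.057 for Angpt4, -0.054 for Jup, -0.11 for Ehd1, 0.073 for Jag1, 0.082 for Hey1, -0.257 for Cav1, 0.132 for Thbd and 0.133 for Tbx3, and Plvap minus Ehd3 was -0.151 on slide 1 alone.

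With a rat left out, Vegfa ran from 0.06 to 0.34, Igfbp3 from 0.10 to 0.59, Hey1 from -0.52 to -0.08 and Tbx3 from -1.03 to -0.28. Ranges that crossed 0 were, among the members, -0.091 to 0.062 for Tek, -0.107 to 0.131 for Tie1, -0.058 to 0.155 for Ehd3 and -0.185 to 0.034 for Eng. Tek minus Tie1 ran from -0.166 to 0.111 and Plvap minus Ehd3 from -0.135 to 0.172. Among other genes they were -0.029 to 0.497 for Angpt4, -0.002 to 0.088 for F11r, -0.021 to 0.072 for Jup, -0.19 to 0.025 for Jag1, -0.029 to 0.247 for Erg, -0.083 to 0.223 for Cav1, -0.101 to 0.16 for Thbd, -0.299 to 0.152 for Fbln5, -0.061 to 0.115 for Nr2f2 and -0.396 to 2.204 for Sele.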
